A study of Danio rerio with 4 samples.

Results

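The cells described here are 633 calvarial mesenchyme cells of the zebrafish, *Danio rerio*, that carried transcripts of *six2a*, which codes for a homeodomain transcription factor, or of *hyal4*, which codes for a hyaluronidase, an enzyme that cuts the matrix sugar hyaluronan. They were chosen by their UMI counts among 21311 cells that had more than 200 and fewer than 2500 detected genes and under 25% of their unique molecular identifiers (UMIs, each standing for 1 captured transcript) on mitochondrial genes. A chosen cell had at least 1 UMI of *six2a* or *hyal4*, at least 1 of the mesenchyme genes *prrx1a*, *prrx1b*, *pdgfra* or *col1a2*, no UMI of the osteoblast genes *ifitm5* and *mmp13b*, and fewer than 2 of the mid-suture genes *angptl1a*, *angptl1b*, *angptl2b* and *tgfbi* detected. These 12 genes chose the cells, so their levels are a description and none of them was tested.

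The calvaria is the roof of the skull. Its bones grow at their edges, first at bone fronts and later at the sutures, the seams of connective tissue between neighbouring plates. Osteogenic mesenchyme is the name for the connective tissue cells there that can become osteoblasts, the cells that lay down bone. In mouse, *Six2* keeps progenitor cells of the kidney from differentiating, and the *Dlx5* and *Dlx6* homeobox genes act in the formation of jaw and skull bone.

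Droplet-based single-cell RNA sequencing was done on calvaria dissected from juveniles of 9 to 11 mm, when bone fronts are still growing, and from adults of 22 to 25 mm, when sutures are in place. There were 2 libraries per stage, each from pooled fish whose strain the labels give as tubingen (20 juveniles or 10 adults), and all 4 were sorted for live cells that excluded the dye DAPI. Juvenile replicate 1 and adult replicate 1 came from *cdh1*:mlanYFP fish and were depleted of YFP-positive cells, which removes epithelial cells. Juvenile replicate 2 came from *sp7*:GFP fish and was depleted of GFP-positive cells. The study's methods describe both gates as a depletion of epithelial cells, and *sp7* is also a gene of osteoblasts. Adult replicate 2 had no reporter gate. Since 1 gate alone occurs at both stages, the effects of gate and stage cannot be told apart beyond that pair. The fish of a library were pooled, and p-values measure the spread between these libraries.

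The 633 *six2a*/*hyal4* cells numbered 195 and 149 in juvenile replicates 1 and 2, and 102 and 187 in adult replicates 1 and 2. Of them, 385 had *six2a* alone, 211 had *hyal4* alone and 37 had both. Their median UMI count was 3363, 3478, 3571.5 and 2550 in the 4 libraries in that order, against 2372, 2248.5, 3247 and 1915.5 in the 5900 cells that met every other condition and had neither gene, named other mesenchyme here. The chosen cells were thus deeper in each library, as a rule that asks for a UMI favours. The libraries shared 232 cell barcodes over their pairs, and none of these was a *six2a*/*hyal4* cell in both libraries of a pair. Those that were such a cell in a single library were not counted. Scrublet called 5, 1, 7 and 0 cells of the 4 libraries as doublets, too few to show that the caller worked, so none was removed. Free haemoglobin RNA marked juvenile replicate 1, where 99.0% of *six2a*/*hyal4* cells had at least 2 red blood cell genes detected, against at most 1.07% in any other library. At least 2 markers of 1 other class (endothelium, epithelium, immune cells, neurons, glia, cartilage or red blood cells) were detected in 193, 121, 24 and 69 *six2a*/*hyal4* cells of the 4 libraries. When red blood cell genes were not used, the numbers were 144, 121, 24 and 67. The part of free RNA and of mixed droplets was not tested.

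The level of *six2a* in these cells was 317, 197, 244 and 408 UMIs per 1000000 UMIs of the same cells and library (CPM) in juvenile replicates 1 and 2 and adult replicates 1 and 2. The level of *hyal4* was 201, 308, 120 and 113 CPM. Most cells rested on a single UMI, since 435 had 1 UMI of the 2 genes together and 198 had 2 or more. Free RNA can give such a UMI, and *six2a* was seen in 0.737%, 0.623%, 0.844% and 0% of immune cells, a class that should lack it, at median depths of 2934, 4060.5, 2242 and 2328 UMIs. Among mesenchyme cells, meaning *six2a*/*hyal4* cells and other mesenchyme together, *six2a* was seen in 6.30%, 5.51%, 5.83% and 7.70%. The corresponding shares for *hyal4* were 0.516%, 0.779%, 0% and 0% of immune cells and 4.07%, 5.80%, 3.34% and 2.33% of mesenchyme cells. In both juvenile libraries and adult replicate 1 the mesenchyme share of either gene was thus above its immune share. The shares of 0 allow up to 1.27% of the 237 immune cells of adult replicate 1 and up to 13.0% of the 23 of adult replicate 2, so that no comparison is possible at this depth in the latter. The share of cells with *hyal4* was higher among cells with *six2a* in each library, at 11.0%, 14.1%, 7.35% and 4.70% of mesenchyme cells with *six2a* and 3.60%, 5.31%, 3.09% and 2.13% of those without. After each cell was thinned to 1000 UMIs the shares were 2.44%, 15%, 4.55% and 3.08% with *six2a* and 1.90%, 3.86%, 1.61% and 1.39% without. The thinned shares with *six2a* rest on 1, 3, 1 and 2 cells with both genes, too few for a comparison.

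The name osteogenic mesenchyme was checked against *dlx5a* and *dlx6a*, which the choice of cells did not use. The level of *dlx5a* was 51.4, 50.5, 117 and 77.2 CPM in *six2a*/*hyal4* cells and 54.8, 97.9, 29.7 and 27.8 CPM in other mesenchyme. It was therefore higher only in the adult libraries, with a log2 fold change of 0.67 ± 0.35 (SE, n = 4 libraries) that did not pass (adjusted p = 0.38, edgeR quasi-likelihood test). The level of *dlx6a* was 0, 0, 0 and 12.6 CPM, from 7 UMIs in all, against 6.28, 11.8, 0.796 and 1.90 CPM in other mesenchyme. Neither marker set these cells apart over the 4 libraries, so they are called here by the genes that chose them. Of the defining genes of osteoblasts, *sp7*, which codes for a transcription factor needed for osteoblast formation, was seen in 2.37% of the cells. The gene *runx2b*, which codes for the factor that starts osteoblast differentiation, was seen in 5.53%. Both stood above other mesenchyme in each library without passing, as given below. The choice left out cells with *ifitm5* or *mmp13b*, and juvenile replicate 2 was depleted of *sp7*:GFP cells.

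Cells on either side of the *six2a* and *hyal4* threshold compare as follows, without a test. With 0, 1 and at least 2 UMIs of the 2 genes, the level of *dlx5a* was 52.2, 59.3 and 84.2 CPM, that of *runx2b* 9.85, 11.4 and 28.5 CPM, and that of *fli1a*, which codes for an ETS transcription factor, 10.6, 13.9 and 27.2 CPM. The level of *spp1*, which codes for the bone matrix protein osteopontin, went the other way, at 129, 86.5 and 54.5 CPM. The levels of *dlx6a* (5.22, 1.26 and 6.19 CPM) and of *sp7* (1.82, 7.57 and 6.19 CPM) followed no order. These levels pool the 4 libraries, which take different shares of the cells. On the other conditions of the rule, 919 cells had *six2a* or *hyal4* and a mesenchyme gene, of which 90 were left out for *ifitm5* or *mmp13b* and 196 for 2 or more mid-suture genes. A further 370 cells with *six2a* or *hyal4* had no mesenchyme gene. Of the chosen cells, 311 had 1 mid-suture gene, just inside the limit, and 322 had none.

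The abundance of these cells at the 2 stages was compared with different denominators. *six2a*/*hyal4* cells made up 2.35% (95% Clopper-Pearson interval 2.03 to 2.69), 1.88% (1.59 to 2.20), 4.92% (4.03 to 5.94) and 6.25% (5.41 to 7.17) of all kept cells, in the order juvenile replicate 1, juvenile replicate 2, adult replicate 1 and adult replicate 2. Both adult libraries thus lay above both juvenile ones, and these intervals cover counting error only. The mean was 5.58% ± 0.936 in adults and 2.11% ± 0.330 in juveniles (SD, n = 2 libraries each), a difference of 3.47 points (two-sided p = 0.33 in an exact permutation over libraries, and 2 against 2 cannot go lower). Within the *cdh1*:mlanYFP gate alone the difference was 2.58 points, from 1 library per stage. With 2 or more UMIs required it was 0.73 points, and with all cells thinned to 1000 UMIs it was 1.79 points.

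Of mesenchyme cells alone, the share was 9.67% (8.42 to 11.0), 10.5% (8.98 to 12.2), 8.74% (7.18 to 10.5) and 9.66% (8.38 to 11.1). These intervals overlapped, and the adult mean of 9.202% ± 0.653 was 0.90 points under the juvenile mean of 10.1% ± 0.606 (difference −0.90, two-sided p = 0.33 in the same exact permutation). The sign of this difference turned to 2.95 points when cells with at least 2 markers of another class were left out, a step that left 2 *six2a*/*hyal4* cells in juvenile replicate 1, and to 2.85 points when red blood cell genes were not used to remove cells. Without adult replicate 1 the difference was −0.44 points and without juvenile replicate 2 it was −0.47.

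**Figure D1:**
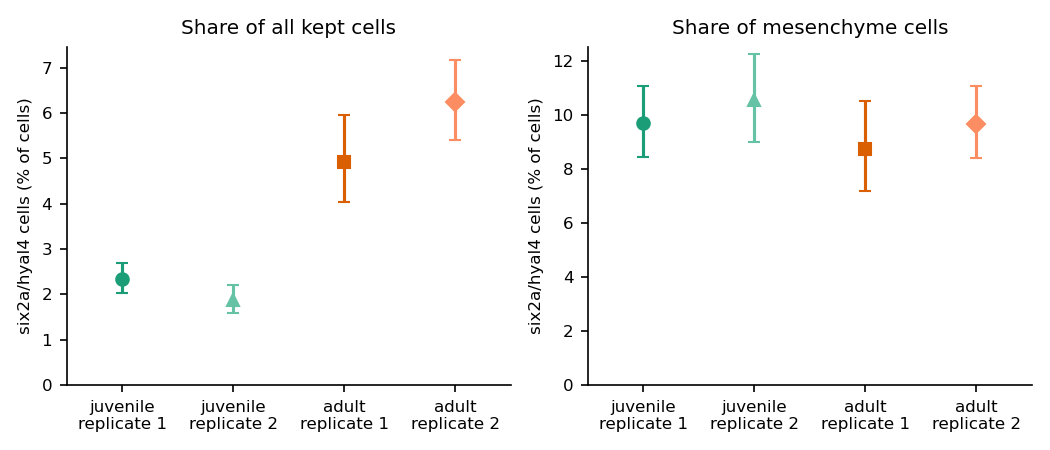
Share of *six2a*/*hyal4* cells in each of the 4 libraries, as percent of all kept cells and as percent of mesenchyme cells, with 95% Clopper-Pearson intervals that cover counting error only. Of all kept cells the adult libraries lie at 4.92% and 6.25% and the juvenile ones at 2.35% and 1.88%, while of mesenchyme cells all 4 lie between 8.74% and 10.5%.

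What *six2a*/*hyal4* cells shared beyond the genes that chose them was asked against other mesenchyme of the same library. Genes of cartilage matrix and the forkhead factors *foxc1a* and *foxc1b* were higher in the *six2a*/*hyal4* cells, and genes of glia, immune cells and tyrosine breakdown were lower. Secreted regulators of WNT and BMP signalling were called in both directions. Of these *frzb*, *rspo2*, *sfrp5*, *bmp3*, *bmp5* and *nog2* were higher and *dkk2* and *grem2b* were lower. Many of these calls were lost in some settings, as given below. Counts of all cells of a group were added up in each library, 12500 genes were tested with edgeR's quasi-likelihood test with the library as a block, and a gene was called at an adjusted p under 0.05 (Benjamini-Hochberg). Of them 159 genes, or 1.27%, were higher in *six2a*/*hyal4* cells and 272, or 2.18%, were lower. The median log2 fold change over all genes tested was −0.11. DESeq2 called 212 higher and 99 lower, and library totals in place of TMM scaling gave 147 and 381. Without juvenile replicate 1 the count was 83 higher and 105 lower.

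Transcription factor genes that were higher included the forkhead genes *foxc1a* and *foxc1b*, whose counterparts in mouse are needed for the meninges and the skull vault. The level of *foxc1b* was 103, 141, 75.3 and 89.8 CPM in *six2a*/*hyal4* cells and 44.0, 36.6, 21.2 and 22.3 CPM in other mesenchyme, so that every *six2a*/*hyal4* sum lay above every other one. The log2 fold change was 1.82 ± 0.21 (SE, n = 4 libraries, adjusted p = 0.00017, edgeR). The paralogue *foxc1a* stood at 47.9, 62.2, 18.2 and 19.8 CPM against 16.6, 16.0, 2.65 and 5.70 CPM (1.99 ± 0.27, adjusted p = 0.00081, edgeR), higher in each of the 4 libraries, but it did not pass after thinning to 1000 UMIs (1.44, adjusted p = 0.19, edgeR). Both genes were also listed as meningeal markers, of which 2 of 12 tested were higher and none lower. At least 2 meningeal markers were detected in 45.1%, 55.0%, 83.3% and 67.9% of *six2a*/*hyal4* cells and in 33.6%, 38.1%, 70.33% and 45.3% of other mesenchyme. The part of meningeal cells in this difference was not tested.

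Of 16 osteogenic transcription factor genes tested, none was higher and 1 was lower, with a median log2 fold change of 0.35. The lower gene was *dlx4a*, a homeobox gene, at 0, 11.8, 0 and 0 CPM against 18.5, 40.6, 0.530 and 6.65 CPM (−2.60 ± 0.57, adjusted p = 0.018, edgeR), and without juvenile replicate 1 it no longer passed (adjusted p = 0.14, edgeR). At these levels *dlx4a* entered the test only through other mesenchyme. The level of *sp7* was 3.51, 1.68, 26.0 and 5.39 CPM against 0.952, 0.785, 3.98 and 1.90 CPM, higher in 4 of 4 libraries but not past the threshold (2.08 ± 0.58, adjusted p = 0.063, edgeR). Likewise *runx2b* was higher in 4 of 4 libraries at 14.02, 5.05, 39.0 and 19.8 CPM against 9.71, 3.40, 17.5 and 9.02 CPM (0.96 ± 0.30, adjusted p = 0.10, edgeR). The log2 fold change of *msx3*, a muscle segment homeobox gene, was 0.60 ± 0.20 and also did not pass.

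Of 14 twist and suture transcription factor genes, 2 were higher and none lower, with a median of −0.40. These were *barx1*, a homeobox gene known from mesenchyme of the pharyngeal arches, at 9.35, 30.3, 0 and 14.4 CPM against 4.38, 8.64, 0.265 and 4.04 CPM, and *six1a*, a relative of *six2a*, at 36.2, 80.7, 64.9 and 50.3 CPM against 30.6, 40.1, 34.2 and 27.3 CPM. Their log2 fold changes were 1.67 ± 0.38 and 0.84 ± 0.22. Neither call was firm. That of *barx1* was lost without juvenile replicate 1, juvenile replicate 2 or adult replicate 2 (edgeR adjusted p = 0.065, 0.20 and 0.077), and its fold change was −0.07 in cells with 2 or more UMIs. That of *six1a* passed at an adjusted p of 0.046 and was lost without any of the 4 libraries (edgeR adjusted p between 0.085 and 0.18). Of the ETS genes that mark bone front mesenchyme in the study, *fli1a* stood at 18.7, 21.9, 18.2 and 14.4 CPM against 12.8, 13.4, 9.81 and 6.17 CPM and *erg* at 9.35, 8.41, 0 and 12.6 CPM against 5.52, 3.93, 3.98 and 4.51 CPM, with log2 fold changes of 0.89 ± 0.29 and 0.90 ± 0.48 that did not pass. The level of *twist2*, whose product in mouse holds back osteoblast differentiation, was lower in 4 of 4 libraries at 70.09, 74.0, 101 and 23.3 CPM against 102, 111, 152 and 50.8 CPM, and did not pass either (−0.58 ± 0.21, adjusted p = 0.16, edgeR).

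**Figure D2:**
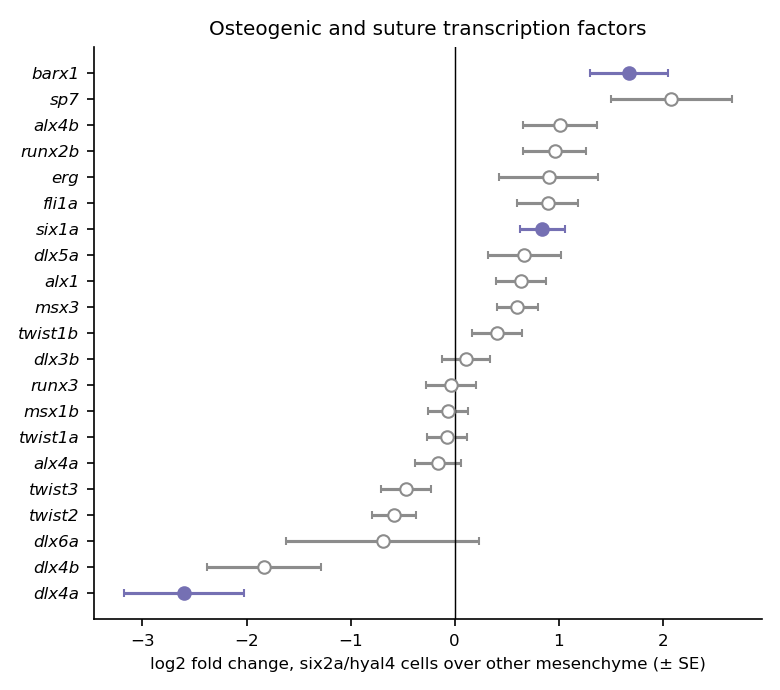
Log2 fold change of osteogenic and suture transcription factor genes between *six2a*/*hyal4* cells and other mesenchyme, with bars of 1 SE over 4 libraries and filled purple points for genes with an adjusted p under 0.05. Filled points are *barx1* at 1.67, *six1a* at 0.84 and *dlx4a* at −2.60, whereas *dlx5a* at 0.67, *runx2b* at 0.96 and *sp7* at 2.08 did not pass.

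Secreted signals formed a second group. The level of *gsdf*, which codes for a TGF-beta family ligand known from fish gonads, was 710, 234, 392 and 578 CPM in *six2a*/*hyal4* cells and 168, 48.7, 128 and 204 CPM in other mesenchyme. Each *six2a*/*hyal4* sum lay above every sum of other mesenchyme (1.94 ± 0.19, adjusted p = 9.1e-05, edgeR). The level of *frzb*, which codes for a secreted WNT antagonist, was 117, 90.8, 127 and 113 CPM against 34.5, 41.6, 36.6 and 41.6 CPM, again without overlap (1.61 ± 0.21, adjusted p = 0.00056, edgeR). Together with *foxc1b*, these were among the calls that held in every setting other than the fit without the library block, in which no gene passed.

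Of 30 WNT genes tested, 3 were higher and 1 lower, with a median of 0.14. Besides *frzb*, *rspo2*, which codes for an R-spondin that raises WNT signalling, stood at 16.4, 10.1, 171 and 71.8 CPM against 10.1, 12.3, 23.6 and 25.9 CPM, higher in 3 of 4 libraries (1.51 ± 0.36, adjusted p = 0.028, edgeR). It did not pass without juvenile replicate 1, adult replicate 1 or adult replicate 2 (edgeR adjusted p = 0.059, 0.17 and 0.084). The level of *sfrp5*, another secreted WNT antagonist, was 206, 173, 109 and 314 CPM against 85.6, 101, 71.6 and 253 CPM (0.82 ± 0.21, adjusted p = 0.039, edgeR), and its fold change was −0.37 once cells with markers of another class were left out. It also failed without juvenile replicate 1, juvenile replicate 2 or adult replicate 1 (edgeR adjusted p = 0.24, 0.098 and 0.065). The lower gene was *dkk2*, which codes for a WNT antagonist of the Dickkopf family, at 4.67, 8.41, 7.79 and 16.2 CPM against 10.7, 23.8, 22.0 and 51.5 CPM (−1.44 ± 0.32, adjusted p = 0.018, edgeR, and 0.13 without adult replicate 2).

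Of 32 BMP ligands, receptors and targets, 2 were higher and none lower, with a median of 0.16. The level of *bmp3*, a family member that in mouse opposes bone formation, was 28.0, 55.5, 15.6 and 8.98 CPM against 6.28, 12.6, 9.81 and 6.89 CPM, and that of the ligand gene *bmp5* was 42.1, 77.4, 195 and 43.1 CPM against 21.5, 31.9, 48.3 and 33.2 CPM. Both were higher in 4 of 4 libraries, by 1.66 ± 0.35 and 1.28 ± 0.25 on the log2 scale (edgeR adjusted p = 0.015 and 0.0097). The first was lost without either juvenile library (edgeR adjusted p = 0.16 without juvenile replicate 1 and 0.10 without juvenile replicate 2) and after thinning to 1000 UMIs. The second was lost without adult replicate 1 (0.064, edgeR), without cells that had markers of another class (0.99, adjusted p = 0.14, edgeR, and 0.72, adjusted p = 0.45, edgeR, when red blood cell genes were not used), without the library block, and after thinning (0.29, adjusted p = 0.85, edgeR). Of 17 BMP antagonists, *nog2*, which codes for a Noggin, was higher at 31.5, 26.9, 46.8 and 75.4 CPM against 15.4, 14.4, 10.9 and 27.3 CPM (1.44 ± 0.25, adjusted p = 0.0041, edgeR). In turn *grem2b*, which codes for a Gremlin, was lower at 5.84, 6.73, 0 and 0 CPM against 73.8, 87.2, 1.86 and 4.75 CPM (−3.55 ± 0.40, adjusted p = 0.00016, edgeR). The call of *nog2* was lost after thinning to 1000 UMIs, where its fold change was 0.38. The same gene was listed as a mid-suture marker, of which 1 of 6 tested was higher and none lower. At least 2 of these 6 were detected in 28.7%, 25.5%, 47.1% and 32.1% of *six2a*/*hyal4* cells. The shares in other mesenchyme were 11.9%, 10.35%, 29.3% and 17.5%. The part of depth in this difference was not tested.

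Of 22 FGF genes, 4 were higher and 1 lower, with a median of 0.19. The receptor gene *fgfr3*, which in mouse and human limits bone growth, stood at 85.3, 80.7, 49.4 and 57.5 CPM against 38.8, 53.4, 22.0 and 24.7 CPM (1.102 ± 0.217, adjusted p = 0.0091, edgeR, and 0.089 without juvenile replicate 1). Its call was also lost with at least 2 UMIs required, without cells that had markers of another class (in both forms), and after thinning to 1000 UMIs. The ligand gene *fgf10b* had no UMI in any *six2a*/*hyal4* cell and 3.05, 6.81, 3.45 and 7.36 CPM in other mesenchyme, which makes it at least 4.02-fold lower against a floor of 3 counts over the group. It entered the test only through other mesenchyme, and its call, the 1 lower FGF gene, was lost without juvenile replicate 1 or adult replicate 1 and with at least 2 UMIs required. Of 13 IGF genes, *igf1*, which codes for insulin-like growth factor 1, was higher at 5.84, 28.6, 140 and 21.5 CPM against 4.57, 8.90, 14.6 and 9.26 CPM (1.97 ± 0.37, adjusted p = 0.0069, edgeR). Adult replicate 1 was the highest and without it the gene no longer passed (1.32, adjusted p = 0.074, edgeR), nor did it pass after thinning to 1000 UMIs. None of 15 Notch genes and none of 11 hedgehog and PTHrP genes passed in this edgeR test. Over all genes tested 1.27% were called higher and 2.18% lower, so the absence of calls among these 15 and 11 genes is near that share.

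Some matrix and bone genes were higher as well. Of 15 bone matrix genes, 3 were higher and none lower, with a median of 0.25. The level of *sparc*, which codes for osteonectin, a calcium-binding matrix protein, was 2353, 2759, 2774 and 2912 CPM against 1227, 1290, 1740 and 1845 CPM (0.92 ± 0.13, adjusted p = 0.00098, edgeR). These levels did not overlap, yet after thinning to 1000 UMIs the fold change was −0.08. The level of *cdh11*, the osteoblast cadherin, was 171, 267, 587 and 357 CPM against 100.1, 159, 273 and 151 CPM (1.04 ± 0.16, adjusted p = 0.0021, edgeR), and thinning lost this call as well (0.71, adjusted p = 0.12, edgeR). The third gene, *phex*, which acts in phosphate balance, was higher in 3 of 4 libraries (1.77 ± 0.41, adjusted p = 0.024, edgeR) and was lost without juvenile replicate 1, adult replicate 1 or adult replicate 2 (edgeR adjusted p = 0.17, 0.069 and 0.10).

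Of 32 other matrix and periosteum genes, 4 were higher and 3 lower. Among the higher ones, *aspn*, which codes for asporin, a small leucine-rich proteoglycan of the periosteum, stood at 162, 192, 270.2 and 285 CPM against 88.5, 74.1, 110.3 and 98.5 CPM (1.34 ± 0.18, adjusted p = 0.0006, edgeR). Its relative *prelp* stood at 72.4, 84.1, 54.6 and 169 CPM against 32.9, 19.1, 25.7 and 72.2 CPM (1.47 ± 0.23, adjusted p = 0.0021, edgeR). A relative in the other direction was *fmodb*, fibromodulin, with 0, 1.68, 0 and 0 CPM against 11.4, 25.4, 1.59 and 4.51 CPM (−4.54 ± 0.77, adjusted p = 0.0033, edgeR). At these levels *fmodb* entered the test only through other mesenchyme. Collagen VIII, a collagen that forms networks rather than fibrils, was higher through *col8a1b* at 46.7, 11.8, 122 and 165 CPM against 8.18, 7.33, 24.4 and 42.3 CPM (2.08 ± 0.27, adjusted p = 0.00056, edgeR). After thinning to 1000 UMIs the calls of *aspn*, *prelp* and *col8a1b* were lost (edgeR adjusted p = 0.21, 0.091 and 0.065). Against mid-suture cells none of 5 periosteum markers, *aspn* among them, passed, and their values are given further on. Of the fibrillar collagen genes only *col2a1a*, a cartilage gene, passed of 11 tested.

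Most cartilage markers were higher than in other mesenchyme. None passed against mid-suture cells, whose values are given further on. Of 12 chondrocyte markers tested, 8 were higher in *six2a*/*hyal4* cells and none lower, with a median log2 fold change of 1.37. The level of *snorc*, which codes for a proteoglycan of the chondrocyte membrane, was 940, 570.2, 70.14 and 3.59 CPM against 262, 167, 9.28 and 1.66 CPM, higher in 4 of 4 libraries (2.13 ± 0.23, adjusted p = 0.00011, edgeR). The level of *cnmd*, which codes for chondromodulin, was 2759, 1805, 75.3 and 55.7 CPM against 758, 655, 35.0 and 17.1 CPM (1.65 ± 0.17, adjusted p = 0.00011, edgeR). The collagen IX gene *col9a3* and *matn1*, which codes for the cartilage protein matrilin-1, were higher by 1.58 ± 0.22 and 1.57 ± 0.21 on the log2 scale, *matn1* in the 2 juvenile libraries alone. The level of *col2a1a*, the main collagen of cartilage, was 2674, 2910, 7.79 and 5.39 CPM against 969, 1210, 14.1 and 0.475 CPM (1.32 ± 0.28, adjusted p = 0.015, edgeR), and it did not pass without juvenile replicate 1 (0.21, edgeR) or juvenile replicate 2 (0.070, edgeR). Outside the list, *chad*, chondroadherin, stood at 179, 67.3, 31.2 and 110 CPM against 42.6, 20.7, 5.84 and 33.7 CPM (2.01 ± 0.23, adjusted p = 0.00016, edgeR). Its call was lost when cells of another class were left out without use of red blood cell genes (adjusted p = 0.10, edgeR).

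Markers of chondrocytes were spread over many of these cells. At least 2 of the 12 were detected in 45.6%, 42.3%, 5.88% and 5.35% of *six2a*/*hyal4* cells and in 23.4%, 24.9%, 3.57% and 1.66% of other mesenchyme. Their summed level was 13310, 11160, 229 and 185 CPM against 4208, 4351, 183 and 116 CPM. In immune cells, as the level of free RNA, *col2a1a* stood at 163, 269, 0 and 0 CPM and *cnmd* at 79.8, 115, 1.22 and 0 CPM. When cells with 2 or more markers of another class were left out and red blood cell genes were not used for this, the log2 fold change was −0.58 for *col2a1a*, 0.29 for *matn1* and 1.06 for *cnmd*, none of them past the threshold. After thinning to 1000 UMIs the calls of *snorc*, *cnmd* and *col9a3* were lost as well (0.99, 0.79 and 0.29). The former step removes cells by these same genes. The part of cartilage cells in the difference was not tested.

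Some genes of glia, immune cells, epidermis and dermal fibroblasts were lower in *six2a*/*hyal4* cells. Of 7 glial markers 6 were lower and none higher, with a median of −2.38. The level of *plp1b*, a myelin gene, was 5.84, 10.1, 2.60 and 0 CPM against 55.4, 464, 3.71 and 1.90 CPM (−4.31 ± 0.51, adjusted p = 0.00023, edgeR). Of 12 immune markers 4 were lower and none higher. The lysozyme gene *lyz* stood at 7.01, 30.3, 52.0 and 0 CPM against 52.7, 695, 619 and 0.475 CPM (−3.74 ± 0.30, adjusted p = 2e-05, edgeR), and without cells that had markers of another class its fold change was −0.33. The summed level of 15 immune markers was 220, 565, 101 and 73.6 CPM in *six2a*/*hyal4* cells and 989, 1466, 1499 and 100.2 CPM in other mesenchyme. The part of free RNA and of mixed droplets in these calls was not tested.

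Of 5 dermal fibroblast markers, which code for enzymes of phenylalanine and tyrosine breakdown, 3 were lower and none higher. The level of *pah*, phenylalanine hydroxylase, was 43.2, 37.0, 221 and 46.7 CPM against 151, 118, 376 and 152 CPM (−1.38 ± 0.21, adjusted p = 0.0016, edgeR). The level of *hpdb*, of the same pathway, was 683, 436, 481 and 302 CPM against 1343, 860, 869 and 470 CPM (−0.79 ± 0.14, adjusted p = 0.0040, edgeR). Of 10 epithelial markers 3 were lower and 7 did not pass. The keratin gene *krt91*, at 2299, 2516, 894 and 3590 CPM against 3254, 3585, 1815 and 4399 CPM (−0.50 ± 0.13, adjusted p = 0.044, edgeR), was lost in DESeq2, without the library block, without cells that had markers of another class (in both forms), with the limit of 5000 genes, and without juvenile replicate 2, adult replicate 1 or adult replicate 2. The basal keratin gene *krtt1c19e* had no UMI in *six2a*/*hyal4* cells and 0.761, 29.1, 68.2 and 0.237 CPM in other mesenchyme, at least 17.4-fold lower over the group, and it entered the test only through other mesenchyme. The collagenase gene *mmp13a*, a paralogue of *mmp13b*, which the choice of cells held at 0, stood at 9.35, 0, 13.0 and 0 CPM against 221, 43.5, 117 and 10.4 CPM (−4.17 ± 0.39, adjusted p = 6.9e-05, edgeR). Markers of endothelium were nearly absent, with 0 of 11 seen in at least 5% of *six2a*/*hyal4* cells and 4 of 11 without a UMI. Other classes were not absent. At least 2 epithelial markers were detected in 21.5%, 36.9%, 20.6% and 29.95% of *six2a*/*hyal4* cells, against 20.7%, 31.7%, 41.9% and 36.3% of other mesenchyme. For neuronal markers the shares were 30.3%, 32.2%, 0.980% and 0%, against 38%, 40.7%, 2.25% and 0.172%.

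The hyaluronidase gene *spam1* was higher at 14.02, 42.1, 13.0 and 7.18 CPM against 4.38, 3.67, 2.12 and 4.04 CPM (2.36 ± 0.43, adjusted p = 0.0052, edgeR), and it was lost without juvenile replicate 2 (0.060, edgeR). At these levels *spam1* entered the test only through *six2a*/*hyal4* cells. It lies next to *hyal4* in the GRCz12tu annotation, and both belong to the same gene family, so reads of the neighbours may not be fully told apart. Of its 46 UMIs in *six2a*/*hyal4* cells, 33 were in cells with *hyal4* alone and 10 in cells with *six2a* alone. The link protein gene *hapln1b*, whose product ties hyaluronan to proteoglycans, was higher as well (1.48 ± 0.33, adjusted p = 0.018, edgeR, and 0.25 without juvenile replicate 1), the only call among 13 hyaluronan genes tested.

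**Figure D3:**
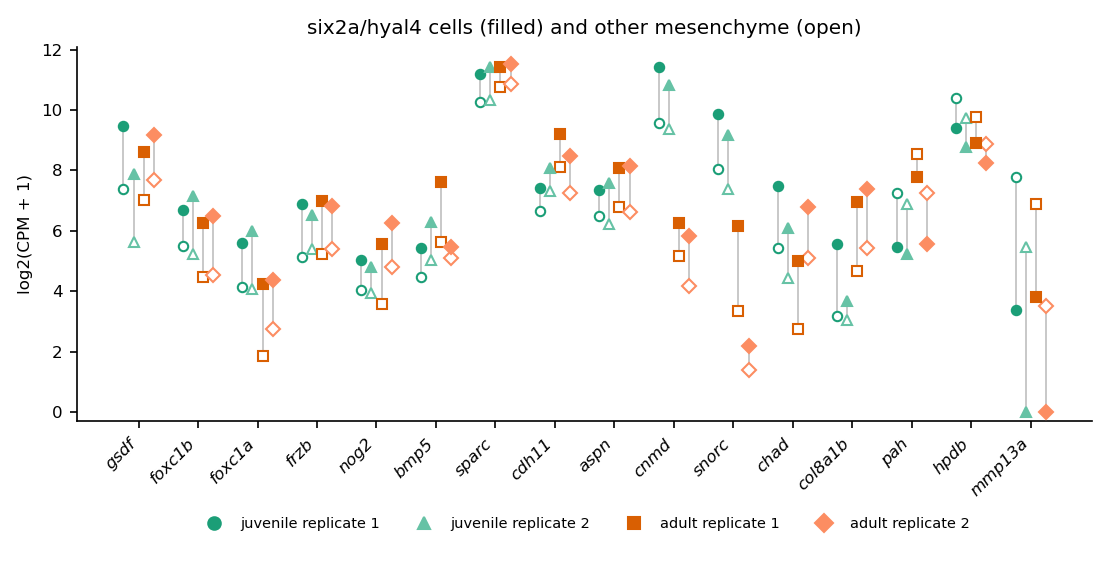
Levels in CPM, on a log2(CPM + 1) axis, of leading genes in each library, with filled points for *six2a*/*hyal4* cells and open points for other mesenchyme. For *gsdf*, *foxc1b* and *frzb* the 4 filled points lie above all 4 open points, from 234 CPM against at most 204 CPM for *gsdf* and from 90.8 against at most 41.6 CPM for *frzb*.

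The stages were compared within *six2a*/*hyal4* cells over the 4 library sums. Cartilage genes were lower in adults, and *penkb*, *fhl1a*, *mmel1* and *crhbp* were among the few that were higher. Of 4007 genes tested, 10, or 0.25%, were higher in adult cells and 34, or 0.849%, were lower (edgeR quasi-likelihood test, 2 against 2 libraries). The count varied strongly with the libraries, at 99, 134, 346 and 350 without juvenile replicate 1, juvenile replicate 2, adult replicate 1 and adult replicate 2. DESeq2 called 59 higher and 65 lower. Removal of cells with at least 2 markers of another class left 2 *six2a*/*hyal4* cells in juvenile replicate 1. That library fell out of the fit, which left 1 juvenile library. When red blood cell genes were not used for this, all 4 libraries stayed and no gene passed in edgeR. There 175 of 1711 tested had an unadjusted p under 0.05.

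The level of *crhbp*, which codes for the binding protein of corticotropin-releasing hormone and was listed as a meningeal marker, was 32.7 and 70.7 CPM in juvenile replicates 1 and 2 and 984 and 914 CPM in adult replicates 1 and 2. That is a log2 difference of 4.36 ± 0.64 (SE, adjusted p = 0.022, edgeR), and 30.1-fold within the *cdh1*:mlanYFP gate. Without juvenile replicate 1 it did not pass (3.97, adjusted p = 0.066, edgeR). The level of *penkb*, a proenkephalin gene, was 0, 1.68, 143 and 46.7 CPM (6.70 ± 0.96, adjusted p = 0.021, edgeR), and that of *fhl1a*, which codes for a LIM domain protein, was 1.17, 0, 104 and 64.6 CPM (6.62 ± 0.82, adjusted p = 0.013, edgeR). Both *penkb* and *fhl1a* entered the test only through the adult sums. Further genes that were higher in adult cells were *mmel1*, which codes for a membrane endopeptidase, by 5.67 ± 0.97, and *il15l*, an interleukin 15-like gene, by 3.84 ± 0.66. The complement gene *c4* was higher by 3.49 ± 0.58 and *fbln1*, which codes for the matrix protein fibulin-1, by 3.16 ± 0.56. All of these calls, from *crhbp* to *fbln1*, were lost without cells of another class when red blood cell genes were not used. That of *crhbp* was lost also after thinning to 1000 UMIs, and that of *mmel1* with the limit of 5000 genes. Without juvenile replicate 1 the calls of *il15l*, *c4* and *fbln1* were lost (edgeR adjusted p = 0.070, 0.095 and 0.074), and that of *fbln1* also without juvenile replicate 2 (0.091, edgeR).

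Of 10 chondrocyte markers tested, 6 were lower in adult cells and none higher, with a median of −5.59 against −0.03 over all genes tested. The level of *col2a1a* fell from 2674 and 2910 CPM to 7.79 and 5.39 CPM (−8.59 ± 0.72, adjusted p = 0.0046, edgeR), and that of *matn1* from 2857 and 2865 CPM to 2.60 and 0 CPM (−11.01 ± 0.96, adjusted p = 0.0046, edgeR). The collagen XI gene *col11a2* stood at 673, 1028, 10.4 and 1.80 CPM (−7.10 ± 0.83, adjusted p = 0.011, edgeR). Markers of neurons and glia were lower in adult cells too. Neuronal markers summed to 436, 681, 31.2 and 28.7 CPM in the 4 libraries and glial markers to 182, 180, 18.2 and 32.3 CPM. Of 6 neuronal markers tested 1 was lower and 5 did not pass, none was above 0 and the median was −4.63. The 1 that passed was *elavl3*, which stood at 74.8, 168, 0 and 0 CPM, at least 35.5-fold lower over the adult group. At these adult levels *elavl3*, *col2a1a*, *matn1* and *col11a2* entered the test only through the juvenile sums. In immune cells *elavl3* stood at 92.2, 90.3, 0 and 0 CPM, above its level in *six2a*/*hyal4* cells in juvenile replicate 1 and under it in juvenile replicate 2. The leukocyte gene *coro1a* (−4.56 ± 0.71) and the glial gene *fabp7a* (−4.94 ± 0.68) were also lower in adult cells. Chondrocyte markers are given above by library, and their part in the stage difference was not tested.

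None of 10 osteogenic transcription factor genes, 11 bone matrix genes, 17 WNT genes, 14 BMP genes or 12 BMP antagonists passed between stages in edgeR, where 519 of all genes tested had an unadjusted p under 0.05. Over all 4007 genes tested 0.25% were called higher and 0.849% lower, so the absence of calls in these lists is near that share. The level of *dlx5a* was 51.4, 50.5, 117 and 77.2 CPM (1.01 ± 0.49, adjusted p = 0.44, edgeR), that of *runx2b* 14.02, 5.05, 39.0 and 19.8 CPM (1.57 ± 0.70, adjusted p = 0.40, edgeR) and that of the homeobox gene *msx1b* 63.1, 58.9, 195 and 126 CPM (1.47 ± 0.51, adjusted p = 0.25, edgeR). For each of the 3 genes both adult libraries lay above both juvenile ones. The WNT gene *rspo2* came closest to the threshold (3.18 ± 0.61, adjusted p = 0.054, edgeR). The level of *bglap*, which codes for osteocalcin, a protein of mature bone matrix, was 16.4, 0, 130 and 88.0 CPM (3.63 ± 0.97, adjusted p = 0.14, edgeR), the 0 being in the library depleted of *sp7*:GFP cells.

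**Figure D4:**
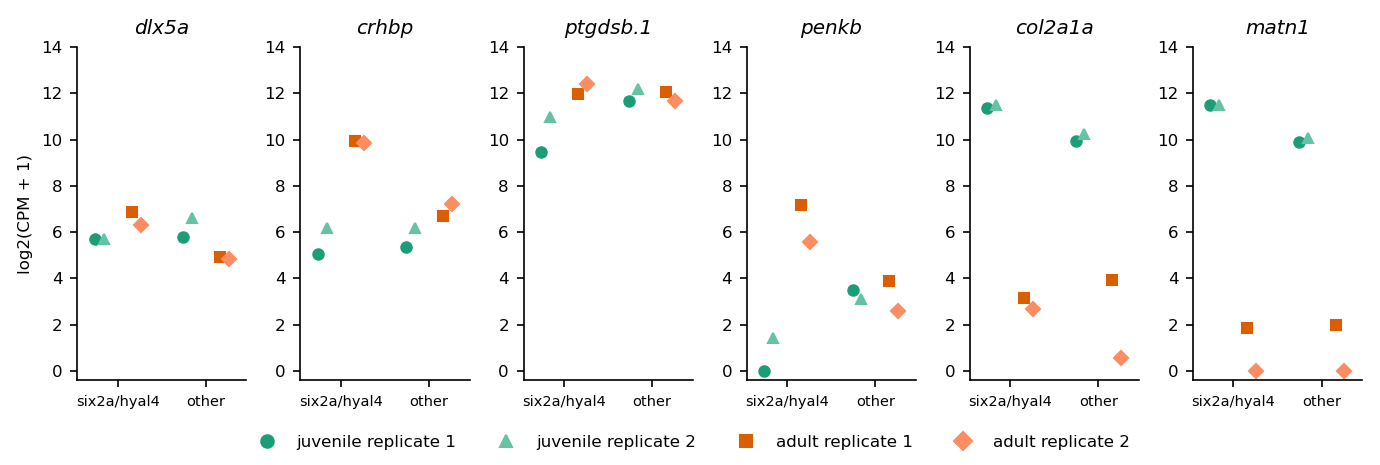
Levels of genes in *six2a*/*hyal4* cells and in other mesenchyme of the 4 libraries on a log2(CPM + 1) axis, with juvenile libraries left and adult libraries right within each group of cells. In *six2a*/*hyal4* cells the adult libraries lie above the juvenile ones for *crhbp* (984 and 914 against 32.7 and 70.7 CPM) and far under them for *col2a1a* and *matn1*.

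Whether a stage difference was the same in *six2a*/*hyal4* cells and in other mesenchyme was tested as the interaction of stage and group of cells. No such test was run against mid-suture cells, whose levels are given for *crhbp*, *ptgdsb.1* and *dlx5a* alone. Of 12500 genes, 8, or 0.064%, had a more positive difference in *six2a*/*hyal4* cells than in other mesenchyme and 35, or 0.28%, a more negative one. With library totals in place of TMM the split was 16 and 35, and without juvenile replicate 1, juvenile replicate 2, adult replicate 1 or adult replicate 2 the count was 125, 143, 93 and 89. The level of *crhbp* in other mesenchyme was 39.4, 72.3, 102 and 146 CPM, so that the gap from juvenile to adult was larger in *six2a*/*hyal4* cells by 2.92 ± 0.34 on the log2 scale (adjusted p = 0.00024, edgeR). The level of *penkb* in other mesenchyme was 10.5, 7.59, 13.8 and 4.99 CPM, and its interaction was 6.75 ± 0.85 (adjusted p = 0.00047, edgeR). The gene *ptgdsb.1*, a prostaglandin D2 synthase gene, stood at 711, 1985, 3954 and 5391 CPM in *six2a*/*hyal4* cells and at 3296, 4596, 4217 and 3246 CPM in other mesenchyme, with an interaction of 1.84 ± 0.28 (adjusted p = 0.0033, edgeR). Removal of cells with markers of another class left juvenile replicate 1 out of the fit. The interactions of *crhbp* and *penkb* were then 1.49 and 2.69. After thinning to 1000 UMIs they were 0.79 and 8.58 and did not pass. When red blood cell genes were not used for the removal, neither passed, and that of *ptgdsb.1* was 1.24 and did not pass. In mid-suture cells *crhbp* stood at 54.8, 10.7, 459 and 242 CPM and *ptgdsb.1* at 1546, 4345, 6002 and 5632 CPM, so that both were higher in the adult libraries there too.

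The marker *dlx5a* was among the 8. It was higher in adult than in juvenile *six2a*/*hyal4* cells and lower in adult than in juvenile other mesenchyme, with the levels given above and an interaction of 2.04 ± 0.43 (adjusted p = 0.043, edgeR). The call was lost without juvenile replicate 2 (1.41, adjusted p = 0.23, edgeR) and without adult replicate 1 (1.68, adjusted p = 0.10, edgeR), and after thinning to 1000 UMIs the interaction was 0.47. In mid-suture cells *dlx5a* was likewise higher in both adult libraries, at 29.3, 49.5, 97.8 and 54.8 CPM.

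Variation within the *six2a*/*hyal4* cells was examined by comparing cells with *six2a* alone and cells with *hyal4* alone. None of 2594 genes passed (0%, edgeR), while 269 had an unadjusted p under 0.05, DESeq2 called 23 and the lowest adjusted p in edgeR was 0.053. Without juvenile replicate 1, juvenile replicate 2, adult replicate 1 or adult replicate 2 edgeR called 0, 12, 2 and 3 genes. The level of *snorc* was 1256, 726, 112 and 4.49 CPM in cells with *six2a* alone and 134, 228, 0 and 0 CPM in those with *hyal4* alone (2.86 ± 0.51, adjusted p = 0.081, edgeR). That of *cnmd* was 3490, 2291, 99.3 and 65.0 CPM against 719, 1162, 40.6 and 11.2 CPM (1.80 ± 0.33, adjusted p = 0.083, edgeR). All 10 chondrocyte markers tested had a positive fold change, with a median of 1.74 against 0 over all genes to 2 decimals. The smooth muscle gene *acta2* lay in the other direction, at 1.68, 0, 45.5 and 318 CPM against 174, 0, 1568 and 1216 CPM (−3.67 ± 0.73, adjusted p = 0.087, edgeR), as did *tagln* of the same cells (−1.60 ± 0.34, adjusted p = 0.090, edgeR) and the insulin-like growth factor binding gene *igfbp2a* (−1.77 ± 0.32, adjusted p = 0.081, edgeR). The level of *dlx5a* was 36.9, 36.5, 108 and 74.0 CPM against 79.4, 76.1, 138 and 66.9 CPM, lower with *six2a* alone in 3 of 4 libraries (−0.45 ± 0.31, adjusted p = 0.65, edgeR).

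The next comparison was with mid-suture cells, taken here as 796 cells with a mesenchyme gene, no *ifitm5* or *mmp13b* and at least 2 of the 4 mid-suture genes. Their choice did not use *six2a* or *hyal4*, and 196 of them had at least 1 of these genes (70, 56, 22 and 48 in the 4 libraries). A likeness of the 2 groups was thus partly built into the choice of cells. Mid-suture cells were also deeper, at medians of 5071, 6371, 4251 and 3939 UMIs, and the part of depth was not tested. Few genes parted the 2 groups. Of 5659 genes tested, 7, or 0.124%, were higher in *six2a*/*hyal4* cells and 2, or 0.0353%, were lower. None of 11 osteogenic transcription factor genes, 15 BMP antagonists or 19 WNT genes was among these 9. The chemokine gene *ccl25b* was higher at 2236, 3334, 5338 and 5721 CPM against 915, 1210, 1678 and 3423 CPM (1.15 ± 0.17, adjusted p = 0.048, edgeR). The claudin gene *cldnb*, known from epithelia, was higher mainly in juvenile replicate 2, at 2.34, 345, 23.4 and 44.9 CPM against 1.91, 5.35, 3.69 and 4.47 CPM (4.14 ± 0.64, adjusted p = 0.048, edgeR). The gene *cgref1*, whose product binds calcium and slows cell growth, was lower at 4.67, 8.41, 7.79 and 12.6 CPM against 12.8, 46.2, 31.4 and 43.6 CPM (−2.08 ± 0.31, adjusted p = 0.048, edgeR). At these levels *cldnb* entered the test only through *six2a*/*hyal4* cells and *cgref1* only through mid-suture cells.

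Chondrocyte markers summed to 13310, 11160, 229 and 185 CPM in *six2a*/*hyal4* cells and to 26260, 48360, 520.1 and 182 CPM in mid-suture cells, so that the juvenile mid-suture cells had more. Of the 12 tested none passed, 1 was above 0 and the median was −1.49. The cartilage collagen gene *col11a2* was lower at 673, 1028, 10.4 and 1.80 CPM against 1500.0, 4210.0, 42.4 and 1.12 CPM, in 3 of 4 libraries (−1.84 ± 0.28, adjusted p = 0.048, edgeR). Periosteum markers summed to 815, 1176, 1886 and 1131 CPM in *six2a*/*hyal4* cells and to 967, 834, 2724 and 2491 CPM in mid-suture cells. The mid-suture sums were thus higher except in juvenile replicate 2. Of the 5 periosteum markers tested none passed, none was above 0 and the median was −0.55. The name mid-suture follows the choosing genes alone. The 6 mid-suture markers outside the choice summed to 1419, 708, 1727 and 1129 CPM in *six2a*/*hyal4* cells. In mid-suture cells they summed to 791, 658, 1968 and 1769 CPM, lower in both juvenile libraries and higher in both adult ones. None of the 6 passed, 1 was above 0 and the median was −0.35. In the juvenile libraries the marker sums thus went against the name.

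These 9 calls were fragile. There were 3, 11, 10 and 0 without juvenile replicate 1, juvenile replicate 2, adult replicate 1 and adult replicate 2, none with library totals in place of TMM (643 at an unadjusted p under 0.05), and 59 in DESeq2, 18 higher and 41 lower. The call of *ccl25b* was lost without juvenile replicate 1, adult replicate 1 or adult replicate 2 (edgeR adjusted p = 0.10, 0.090 and 0.054), that of *cldnb* without juvenile replicate 2 or adult replicate 2 (0.13 and 0.11, edgeR), and that of *cgref1* without any of the 4 (between 0.065 and 0.11, edgeR). The level of *dlx5a* in mid-suture cells was 29.3, 49.5, 97.8 and 54.8 CPM, under that of *six2a*/*hyal4* cells in each library by little (0.26 ± 0.22, adjusted p = 0.74, edgeR). The log2 fold change of *runx2b* was 0.49 ± 0.34, that of the skull homeobox gene *alx1* 0.63 ± 0.28 and that of *sp7* −0.09 ± 0.58, none of them past the threshold. A p that misses the threshold does not show that the groups are alike.

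Osteoblast lineage cells, 360 cells with a mesenchyme gene and at least 2 UMIs of *ifitm5* and *mmp13b* together, stood farther away. Their median UMI counts were 5638, 7472, 4587 and 5223.5 in the 4 libraries, above those of *six2a*/*hyal4* cells in each. The part of depth in this comparison was not tested. Genes of bone mineral and matrix were lower in *six2a*/*hyal4* cells and genes of periosteal matrix, WNT modulators and follistatins were higher. Since *ifitm5* and *mmp13b* parted these groups, a lower level of bone genes was partly built into the choice of cells. Of 4787 genes tested, 202, or 4.22%, were higher and 86, or 1.8%, were lower. With library totals in place of TMM these were 274 and 59, and the median over all genes moved from 0.04 to 0.28. The count was 108, 557, 91 and 84 without juvenile replicate 1, juvenile replicate 2, adult replicate 1 and adult replicate 2. The name osteoblast lineage follows the choosing genes alone. In juvenile replicate 2, depleted of *sp7*:GFP cells, the 43 cells went against it, with osteoblast markers summing to 1052 CPM and chondrocyte markers to 46970 CPM, whereas osteoblast markers summed to 31680, 45250 and 58580 CPM in juvenile replicate 1, adult replicate 1 and adult replicate 2. Without juvenile replicate 2 there were 335 higher and 222 lower.

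Of 8 pre-osteoblast and osteoblast markers, 7 were lower and none higher. This direction was partly set by the choice of cells and describes the groups. The level of *spp1* was 140, 6.73, 13.0 and 93.4 CPM in *six2a*/*hyal4* cells and 6835, 930.0, 1607 and 17510 CPM in the osteoblast lineage (−6.99 ± 0.44, adjusted p = 0.0006, edgeR). That of *bglap* was 16.4, 0, 130 and 88.0 CPM against 481, 0, 5974 and 18880 CPM (−6.25 ± 0.67, adjusted p = 0.0053, edgeR). The gene of the matrix protease *mmp9* stood at 16.4, 20.2, 13.0 and 10.8 CPM against 625, 109, 87.1 and 299 CPM (−4.14 ± 0.55, adjusted p = 0.0058, edgeR). At these levels *mmp9* entered the test only through osteoblast lineage cells. The hemichannel gene *panx3* was lower by −6.72 ± 0.92 on the log2 scale and the phosphatase gene *phospho1*, which starts mineral formation, by −5.60 ± 0.74. Of these, *panx3* was lost without juvenile replicate 1 (0.073, edgeR) or adult replicate 1 (0.063, edgeR), and *phospho1* without adult replicate 1 (0.074, edgeR). A bone gene in the other direction was *alpl*, the tissue non-specific alkaline phosphatase gene, at 17.5, 58.9, 70.14 and 3.59 CPM against 2.70, 0, 0 and 0 CPM (4.31 ± 0.74, adjusted p = 0.017, edgeR). It is the 1 gene of 17 in the bone matrix list that was higher, was singled out after its value was seen, and was lost without juvenile replicate 1, adult replicate 1 or adult replicate 2 (edgeR adjusted p = 0.074, 0.10 and 0.059). At these levels *alpl* entered the test only through *six2a*/*hyal4* cells.

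Of 12 osteogenic transcription factor genes, 2 were higher and 2 lower. The level of *sp7* was 3.51, 1.68, 26.0 and 5.39 CPM against 24.3, 6.24, 63.6 and 48.1 CPM (−2.42 ± 0.44, adjusted p = 0.020, edgeR), and that of *runx2b* 14.02, 5.05, 39.0 and 19.8 CPM against 57.9, 9.36, 77.0 and 36.1 CPM (−1.48 ± 0.33, adjusted p = 0.039, edgeR). At these levels *sp7* entered the test only through osteoblast lineage cells. The homeobox genes *alx1* and *msx3* were higher by 2.23 ± 0.40 and 2.00 ± 0.38, and of 8 twist and suture factor genes *twist1b* (1.97 ± 0.44) and *twist2* (1.58 ± 0.32) were higher, each in 4 of 4 libraries. The calls of *runx2b*, *alx1*, *msx3*, *twist1b* and *twist2* were each lost without juvenile replicate 1, adult replicate 1 or adult replicate 2, with adjusted p in edgeR between 0.060 and 0.16, and that of *sp7* without juvenile replicate 1 (0.090) or adult replicate 2 (0.12). The level of *dlx5a* was 43.1, 12.5, 164 and 25.3 CPM in the osteoblast lineage (0.46 ± 0.42, adjusted p = 0.59, edgeR).

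Of 28 other matrix and periosteum genes, 10 were higher and 2 lower. The level of *postna*, a periostin gene, was 30.4, 92.5, 249 and 93.4 CPM against 0, 3.12, 3.35 and 1.202 CPM (5.61 ± 0.49, adjusted p = 0.0021, edgeR). The gene of osteoglycin, *ogna*, stood at 207, 119, 96.1 and 124 CPM against 12.1, 3.12, 3.35 and 2.41 CPM (4.503 ± 0.386, adjusted p = 0.0021, edgeR). At these osteoblast lineage levels *postna* and *ogna* entered the test only through *six2a*/*hyal4* cells. Of the remainder, *col12a1b* of collagen XII was higher by 3.88 ± 0.44, *aspn* by 3.56 ± 0.46 and the decorin gene *dcn* by 2.72 ± 0.33, each in 4 of 4 libraries and past the threshold without any of them.

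Signals differed too. Of 19 WNT genes, 6 were higher and none lower, among them the R-spondin gene *rspo1* at 17.5, 25.2, 96.1 and 32.3 CPM against 0, 3.12, 0 and 0 CPM (5.45 ± 0.76, adjusted p = 0.0069, edgeR). The secreted WNT antagonist gene *sfrp2* stood at 92.3, 190.1, 192 and 71.8 CPM against 16.2, 3.12, 3.35 and 4.81 CPM (3.74 ± 0.53, adjusted p = 0.0072, edgeR), and *sfrp1b* was higher by 5.04 ± 0.63. The call of *rspo1* was lost without juvenile replicate 1 (0.050, edgeR) or adult replicate 1 (0.069, edgeR). At their osteoblast lineage levels *rspo1* and *sfrp2* entered the test only through *six2a*/*hyal4* cells. Of 12 BMP antagonists, 4 were higher and none lower. The level of *fstl3*, a follistatin-like gene, was 1268, 511, 1416 and 849 CPM against 131, 109, 117 and 118 CPM (2.74 ± 0.33, adjusted p = 0.0053, edgeR), and *fstb*, which codes for a follistatin, stood at 106, 165, 221 and 117 CPM against 14.8, 9.36, 6.70 and 3.61 CPM (3.799 ± 0.427, adjusted p = 0.0050, edgeR). Likewise *fstb* entered the test only through *six2a*/*hyal4* cells. Lower were the receptor gene *fgfr3*, at 85.3, 80.7, 49.4 and 57.5 CPM against 276, 353, 342 and 224 CPM (−2.37 ± 0.30, adjusted p = 0.0053, edgeR), the Indian hedgehog gene *ihha* by −3.49 ± 0.50 and the ligand gene *bmp2a* by −2.06 ± 0.40. The call of *bmp2a* was lost without juvenile replicate 1, adult replicate 1 or adult replicate 2 (edgeR adjusted p = 0.056, 0.12 and 0.084). Thus *fgfr3* in *six2a*/*hyal4* cells lay between its levels in other mesenchyme and in the osteoblast lineage in each library.

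The chemokine gene *ccl25b* stood at 87.6, 21.8, 124 and 175.5 CPM in the osteoblast lineage, under its level in *six2a*/*hyal4* cells (5.23 ± 0.42, adjusted p = 0.0021, edgeR), and the cytokine gene *clcf1* had no UMI there and 21.0, 25.2, 64.9 and 5.39 CPM in *six2a*/*hyal4* cells, at least 18.6-fold higher over the group. It entered the test only through *six2a*/*hyal4* cells, and its call was lost without juvenile replicate 1, adult replicate 1 or adult replicate 2 (edgeR adjusted p = 0.10, 0.13 and 0.074). All 5 dermal fibroblast markers tested were higher in *six2a*/*hyal4* cells than in the osteoblast lineage, whereas 3 of them were lower than in other mesenchyme. Their summed level in *six2a*/*hyal4* cells was 1272, 829, 1125 and 610.4 CPM, against 2282, 1604, 1979 and 970 CPM in other mesenchyme.

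**Figure D5:**
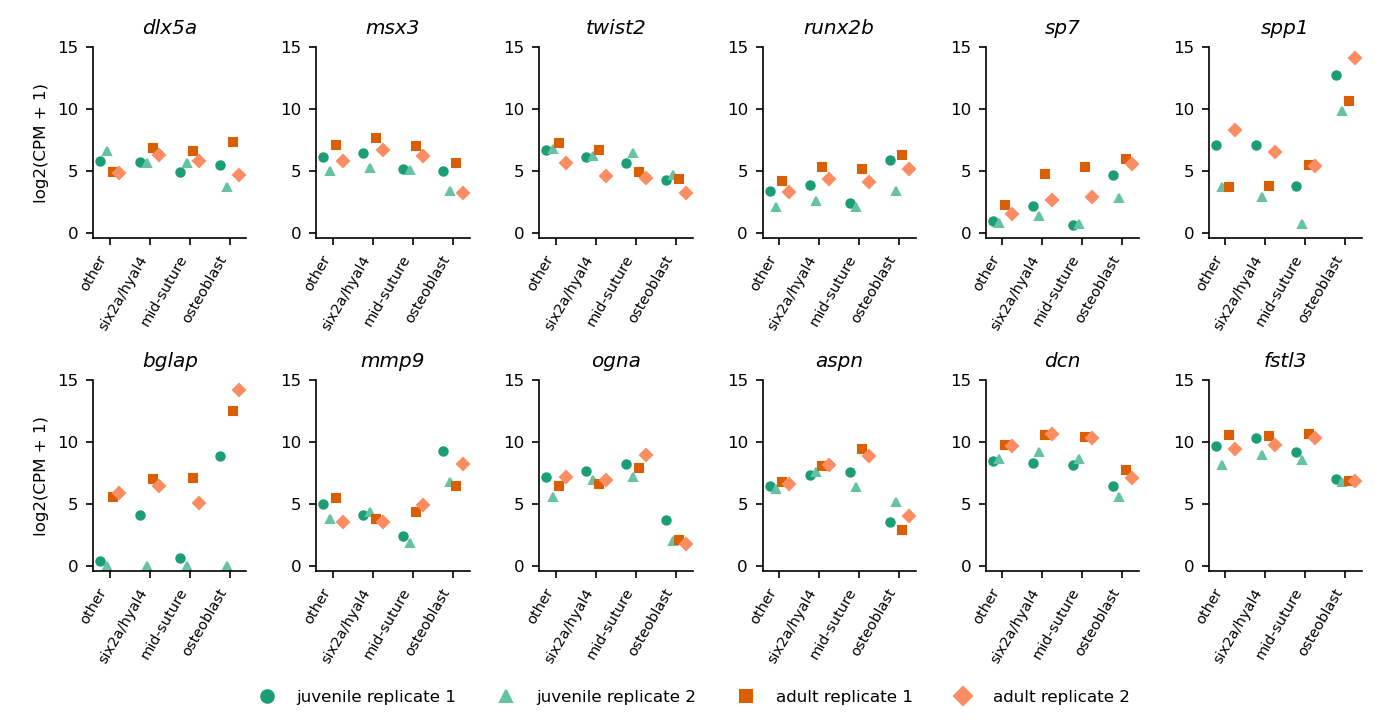
Levels on a log2(CPM + 1) axis of genes in *six2a*/*hyal4* cells, other mesenchyme, mid-suture cells and osteoblast lineage cells, with a point for each of the 4 libraries. The osteoblast gene *spp1* stands at 930.0 to 17510 CPM in the osteoblast lineage and at 6.73 to 140 CPM in *six2a*/*hyal4* cells, and *dlx5a* overlaps between the groups.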

How the data were processed

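Calvarial cells were profiled with 10x 3′ chemistry in 4 libraries. The authors aligned reads to GRCz11 with Cell Ranger and deposited UMI count matrices of 39988 genes per library. These hold raw counts, 61727513 UMIs in all, and 106 symbols occur more than once. The Cell Ranger version differs between the study's methods and the headers, and no source used here gives the annotation.

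Cells passed the filters of the study, and counts were summed per library and cell group, with groups under 10 cells left out. Sums were tested with edgeR 4.0.16 (R 4.3.3, TMM, filterByExpr, quasi-likelihood F test, Benjamini-Hochberg over all genes tested) with the library as a block, except between stages. Each test was tried on simulated data, where the fitted fold changes were close to those put in, but few of the changed genes were called between stages or in the interaction, so that a gene not called there may still differ. SE is the absolute log2 fold change over the square root of F. Lower bounds of folds use a floor of 3 counts over the group. Immune cells had at least 3 of 6 immune markers. Near-identical genes may share reads, and the counts were used as given.

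Alternatives were library totals, DESeq2 1.42.0, no count filter, no block, at least 2 UMIs, removal of the 6% of cells with the highest Scrublet scores (scanpy 1.11.5) or of cells with at least 2 markers of another class, thinning to 1000 UMIs, a limit of 5000 genes, and leaving out each library. Members and gene lists were chosen with earlier results of these data known. Named genes were tested members of the lists of osteogenic mesenchyme, bone front and transcription factor genes, for each comparison up to 10 largest increases and 10 largest decreases with at least 20 UMIs and the same direction in every library, and up to 4 members with the lowest p of each other list. Of the nameable genes, those with a role that could be stated were described. Genes named by locus or clone were counted only. The 12 genes that chose the cells were not tested.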

Additional observations from a re-analysis of the deposited data

Results flagged for a closer look

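The difference between adult and juvenile cells was not the same in *six2a*/*hyal4* cells and in other mesenchyme for 7 described genes, by the edgeR interaction test. It was more positive in *six2a*/*hyal4* cells by 2.04 on the log2 scale for *dlx5a*, by 2.92 for *crhbp*, by 1.84 for *ptgdsb.1* and by 6.75 for *penkb*. It was more negative for *krt5*, a basal keratin gene (−4.37), *otos*, otospiralin (−4.12), and *epd*, ependymin (−6.65). The level of *krt5* was 16.4, 1245, 28.6 and 5.39 CPM in *six2a*/*hyal4* cells and 25.7, 734, 170 and 293.5 CPM in other mesenchyme, and that of *epd* was 1.17, 6.73, 2.60 and 5.39 CPM against 1.52, 1.83, 56.0 and 282 CPM. In *six2a*/*hyal4* cells *epd* had few UMIs in each library. Its call was lost with 2 or more UMIs required and without high doublet scores. It was lost too without cells of another class when red blood cell genes were not used. The interaction of *krt5* turned to 2.07 and 2.18 without cells of another class, with and without use of red blood cell genes, and was −0.64 after thinning, and that of *otos* turned to 1.59 after thinning, none of them past the threshold. The call of *otos* was lost also without adult replicate 1 (adjusted p = 0.066, edgeR) and that of *epd* without juvenile replicate 2 (adjusted p = 0.53, edgeR).

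Among 159 barcodes with at least 2500 genes, which no comparison used, 5 met every other condition for a *six2a*/*hyal4* cell, above the 3 that a count of 0 allows. Among kept cells 633 of 21311 did, and no difference in share was tested.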

How the results depend on the processing

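Against other mesenchyme, 431 genes passed. The count was 811 with no filter on low counts, 797 with 2 or more UMIs, 147 without cells of another class, 124 when red blood cell genes were not used for this, 215 after thinning, and 0 in edgeR without the library block, where 346 had an unadjusted p under 0.05. It was 188 to 369 with 1 library left out. Between stages 44 passed, and the count was 100 with library totals, 124 in DESeq2, 324 with no filter, 68 with 2 or more UMIs, 17 without cells of another class, 0 when red blood cell genes were not used (edgeR, 175 at an unadjusted p under 0.05), 2 after thinning, and 99 to 350 with 1 library left out. The interaction gave 43, and 24 in DESeq2, 124 with no filter, 73 with 2 or more UMIs, 80 without high doublet scores, 106 and 8 without cells of another class with and without use of red blood cell genes, 20 after thinning, 86 with up to 5000 genes and 89 to 143 with 1 library left out. Against mid-suture cells 9 passed, and 0 did in edgeR with library totals, without the block, without cells of another class in either form and with up to 5000 genes (643, 84, 156, 156 and 640 at an unadjusted p under 0.05). It was 59 in DESeq2, 311 with no filter, 22 with 2 or more UMIs, 22 without high doublet scores, 25 after thinning and 0 to 11 with 1 library left out. Against the osteoblast lineage 288 passed, and 778 with no filter, 85 without the block, 134 with 2 or more UMIs, 62 after thinning and 84 to 557 with 1 library left out. Between *six2a* alone and *hyal4* alone it was 23 in DESeq2, 108 with no filter, 1 with up to 5000 genes and 0 to 12 with 1 library left out. The causes were not tested. Thinning and the removal of cells also left fewer genes to test. Where all lists removed cells of another class, groups under 10 cells left 3 libraries in each fit, and 2 against the osteoblast lineage. When red blood cell genes were not used there were 4, and 3 against the osteoblast lineage.

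The share of kept cells differed between stages by 0.73 points with 2 or more UMIs, 1.79 after thinning, 4.52 without cells of another class when red blood cell genes were not used, and 2.81 to 4.13 with 1 library left out. The share of mesenchyme differed by 2.95 and 2.85 points without cells of another class, with and without use of red blood cell genes, and by −1.36 to −0.44 with 1 library left out. Of 1598 values of single genes under an alternative, 1271 kept direction and side of the threshold, 275 kept direction and lost the call, 39 gained it and 13 turned in sign, none of these 13 past the threshold. Against other mesenchyme these were *col2a1a* (−0.58) and *sfrp5* (−0.20) without cells of another class when red blood cell genes were not used, *sfrp5* (−0.37) without cells of another class, *barx1* (−0.066) and *dlx6a* (0.078) with 2 or more UMIs, *dlx6a* without juvenile replicate 1 (0.06) or juvenile replicate 2 (0.35, in a range of −7.04 to 0.35 with 1 library left out), and *sparc* (−0.078) after thinning. In the interaction *krt5* was 2.07 and 2.18 without cells of another class and *otos* 1.59 after thinning. The fold change of *runx2b* against mid-suture cells was −0.021 without cells of another class, and that of *tagln* between the *six2a* and *hyal4* cells was 0.26 after thinning.

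The form that does not use red blood cell genes was chosen after seeing the data, since haemoglobin UMIs were in nearly every cell of juvenile replicate 1. The *cdh1*:mlanYFP gate alone has 1 library per stage and gives no count. No paired analysis was possible because no label numbers the replicates, whose numbers here serve as names. With 102 to 195 cells per library, genes of low level had few UMIs.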
